A study of Mus musculus with 24 samples.

Results

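The genes described here are 8 CC chemokine genes, Ccl2, Ccl3, Ccl4, Ccl6, Ccl7, Ccl8, Ccl9 and Ccl12, and Ccr2, the receptor through which several of them act on monocytes. The rule lists them by name, as a chemokine group picked with earlier results of these data known, and they are 9 of the 54532 genes in the count tables. RNA was sequenced from the left gastrocnemius, a calf muscle, of wild-type C57/BL6 mice, in 24 libraries that fell into 6 groups of 4. Sedentary controls of each sex received a pair of 20 µl injections of saline at pH 7.2 ± 0.1 into the muscle, 5 days apart. Sedentary pain animals received injections of pH 5.0 ± 0.1 at the same volume and spacing, and the muscle was made to contract electrically for 6 min immediately before the second injection. Active pain animals had a running wheel for 8 weeks and then went through the same pain procedure. All groups had injections into the sampled muscle and carry the label 24 h. The controls had neither acid nor contraction, so those cannot be told apart, and no group ran without the pain procedure. The labels number the replicates and say no more about them, so p-values measure the spread between these samples, which may be partly technical.

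Chemokines are small secreted proteins that guide the movement of leukocytes, and the CC family takes its name from a pair of adjacent cysteines near the start of the mature protein. Ccl2, Ccl7 and mouse Ccl12 bind Ccr2, a receptor of the G-protein-coupled class that classical monocytes need to leave the bone marrow and enter damaged tissue. In injured skeletal muscle, resident macrophages and other cells are known to release these ligands, and the arriving monocytes become macrophages that clear debris and take part in repair.

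The 8 chemokine genes share this cysteine motif, and the coding stretch that holds it is printed for 7 of them, from the GRCm38 genome and its GENCODE M21 annotation, because it is the sequence that defines the family. Each stretch is 36 bases long, lies within 1 coding exon and is written 5′ to 3′ on the strand of the gene; the capitals mark the codons of the adjacent cysteines.
Ccl2, chr11:82036491-82036526, plus strand: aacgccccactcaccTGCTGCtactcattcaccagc
Ccl7, chr11:82046523-82046558, plus strand: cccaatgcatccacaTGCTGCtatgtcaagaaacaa
Ccl12, chr11:82102619-82102654, plus strand: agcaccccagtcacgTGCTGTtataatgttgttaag
Ccl8, chr11:82116041-82116076, plus strand: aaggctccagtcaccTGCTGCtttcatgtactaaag
Ccl4, chr11:83663467-83663502, plus strand: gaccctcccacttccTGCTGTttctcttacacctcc
Ccl6, chr11:83589371-83589406, minus strand: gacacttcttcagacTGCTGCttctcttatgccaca
Ccl9, chr11:83575911-83575946, minus strand: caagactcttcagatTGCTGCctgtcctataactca
TGC is used for both cysteines in 5 of the 7 stretches, and in Ccl4 and Ccl12 the second cysteine is coded by TGT. The 8 genes lie in a pair of blocks on chromosome 11 of GRCm38. Ccl2, Ccl7, Ccl12 and Ccl8 lie within 81.2 kb (82035571 to 82116799), and Ccl9, Ccl6, Ccl3 and Ccl4 within 91.8 kb (83572919 to 83664683). Ccr2 (ENSMUSG00000049103) lies on chromosome 9, 124101950 to 124113557. No stretch of 100 bases of the 8 chemokine transcripts occurs in a transcript of another gene, while 0.79% of those of Ccr2 do, which is a limit on the Ccr2 counts. Ccl2 overlaps Gm17268 on the other strand, which had 0 counts in all 24 libraries, and Ccl6 overlaps E230016K23Rik on the other strand, which had 0 to 13 counts per library. Whether strand was used in counting is not given in the sources used here.

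A table of RefSeq promoter windows (GRCm38.p6) held an entry for 6 of the 9 genes, Ccl3, Ccl6, Ccl8, Ccl9, Ccl12 and Ccr2, and not for Ccl2, Ccl4 and Ccl7. The 250 bases before the start are printed for Ccl12 and Ccl8, neighbours in the first block, because both held a TATAAA match at nearly the same distance from the start. Both are written 5′ to 3′, and the capitals mark matches to the motifs searched.
Ccl12, chr11:82101595-82101844, plus strand: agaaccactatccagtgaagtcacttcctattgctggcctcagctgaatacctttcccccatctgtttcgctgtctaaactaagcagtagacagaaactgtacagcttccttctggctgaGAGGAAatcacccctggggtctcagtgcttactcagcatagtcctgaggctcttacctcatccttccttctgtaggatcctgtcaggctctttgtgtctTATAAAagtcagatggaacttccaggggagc
Ccl8, chr11:82114935-82115184, plus strand: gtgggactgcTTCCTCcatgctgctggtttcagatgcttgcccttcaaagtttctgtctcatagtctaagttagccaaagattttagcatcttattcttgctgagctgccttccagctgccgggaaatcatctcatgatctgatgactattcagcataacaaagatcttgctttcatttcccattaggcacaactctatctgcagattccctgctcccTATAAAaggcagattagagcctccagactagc
The motifs searched on both strands were the core promoter box TATAAA, the AP-1 motif TGANTCA, the PU.1 motif GAGGAA, the kappaB motif and the interferon-stimulated response element. TATAAA began 31 bases before the start in Ccl12 and 32 bases before it in Ccl8. It also occurred in Ccl9, so that 3 of the 6 windows held it, against 12.4% of 32851 windows of the same length. GAGGAA occurred in Ccl12, Ccl8 and Ccl3 and in 23.3% of all windows. Ccl9 alone among the 6 held TGANTCA (6.75% of all windows) and the kappaB motif (45.8%), and none of the 6 held the interferon-stimulated response element (2.98%). Ccl9 held 3 TATAAA matches, of which 1 pair on opposite strands overlapped in part. A match to these letters is a description of the window and was not tested against the counts.

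The libraries held 17612139 to 34039699 counts, so that 3 counts, the limit that a count of 0 allows, stand for 0.0881 to 0.170 counts per 1000000 (CPM), counting error only. Levels are given as CPM scaled by the trimmed mean of M-values (TMM). The 10 muscle fibre genes checked against the tissue label took 8.38% to 20.6% of the scaled counts and none was at 0. Some libraries stood apart. Female sedentary pain replicates 3 and 4 had summed CPM of 12 macrophage genes of 3702 and 5155, against 462 and 598 in replicates 1 and 2 and 114 to 238 in female controls. In the same pair of libraries 10 T and NK cell genes summed to 90.8 and 136 CPM, against 4.71 and 7.55 in the other pair. Mitochondrial genes took 2.75% to 8.22% of the counts in female sedentary pain, 4.53% in male sedentary pain replicate 1, and 5.97% to 12.6% in the remaining libraries. The libraries carry numbers in the labels, from 2 to 20 for replicates 1 and 2 and from 25 to 45 for replicates 3 and 4, with no statement of what they mark; the female pair with high macrophage sums has late numbers. The part of these differences in the results was not tested.

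In females, all 8 chemokines and Ccr2 were higher in sedentary pain than in controls, by 14.7-fold to 221-fold. Ccl2 rose 68.2-fold, Ccl8 51.4-fold and Ccr2 15.2-fold, and the groups of 4 did not overlap for any of the 9 genes. Ccl2 (ENSMUSG00000035385, chromosome 11, 82035571 to 82037453), the main ligand of Ccr2, had 0.481, 0.469, 0.769 and 0.515 CPM in the female controls (replicates 1 to 4) and 15.5, 75.9, 22.8 and 36.8 CPM in female sedentary pain. The lowest pain library was thus far above the highest control, and replicate 2 was the highest of the group. The fitted log2 fold change of Ccl2 was 6.09 ± 0.95 (SE, derived from the F statistic of the test), a 68.2-fold rise. Its adjusted p was 0.0026 in edgeR's quasi-likelihood test.

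Ccl7 (ENSMUSG00000035373, chromosome 11, 82045712 to 82047525), which also acts through Ccr2, ranked the pain libraries in the same order as Ccl2. It had 0.306, 0.341, 0.731 and 0.363 CPM in female controls and 13, 105, 19.1 and 38.6 CPM in female sedentary pain. The log2 fold change was 6.66 ± 1.08 (adjusted p = 0.00285). Ccl12 (ENSMUSG00000035352, chromosome 11, 82101845 to 82103400), a rodent ligand of Ccr2, was scarce. Its CPM was 0.0438, 0.128, 0.269 and 0.0605 in female controls and 2.48, 15.8, 4.57 and 7.37 in female sedentary pain. As with Ccl2 and Ccl7, replicate 2 was the highest pain library, and the log2 fold change was 5.90 ± 1.03 (adjusted p = 0.00327).

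Ccl8 (ENSMUSG00000009185, chromosome 11, 82115185 to 82116799), whose mouse protein is known as a ligand of Ccr8, differed from its neighbours in which libraries were high. It had 1.18, 0.298, 0.692 and 1.54 CPM in female controls and 11.5, 24.0, 60.8 and 92.9 CPM in female sedentary pain. Replicates 3 and 4 were the highest, the pair with the high macrophage sums, whereas Ccl2, Ccl7 and Ccl12 were highest in replicate 2. The log2 fold change of Ccl8 was 5.68 ± 0.78 (adjusted p = 0.0026), a 51.4-fold rise.

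Ccl3 (ENSMUSG00000000982, chromosome 11, 83647844 to 83649355) and Ccl4 (ENSMUSG00000018930, chromosome 11, 83662584 to 83664683) code for the macrophage inflammatory proteins 1 alpha and 1 beta, which attract monocytes and other leukocytes. Both were at or under 3 counts in every female control, with 0, 0, 3 and 1 counts for Ccl3 and 2, 1, 1 and 1 counts for Ccl4. In female sedentary pain Ccl3 had 13, 490, 117 and 164 counts, which is 0.489, 27.6, 3.58 and 5.52 CPM. Ccl4 had 26, 537, 106 and 300 counts there, or 0.979, 30.2, 3.25 and 10.1 CPM. Replicate 2 held 74.2% of the summed CPM of Ccl3 in its group and 67.9% of that of Ccl4. The log2 fold changes of 7.79 ± 2.05 for Ccl3 (adjusted p = 0.0167) and 7.75 ± 1.88 for Ccl4 (adjusted p = 0.0118) rest on 4 and 5 control counts in all, so their size is uncertain.

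Ccl6 (ENSMUSG00000018927, chromosome 11, 83587882 to 83593087) and Ccl9 (ENSMUSG00000019122, chromosome 11, 83572919 to 83578636) are neighbouring chemokines of rodents that bind Ccr1, and both were counted in every library. In female controls Ccl6 had 6.91, 5.67, 12.1 and 15.1 CPM, and it had 65.3, 183, 132 and 194 CPM after the sedentary pain procedure. Ccl9 had 4.38, 4.52, 8.89 and 9.17 CPM in controls and 46.0, 153, 75.8 and 123 CPM in sedentary pain. Both thus rose to a similar degree, by 14.7-fold for Ccl6 (log2 3.88 ± 0.54) and 15-fold for Ccl9 (log2 3.91 ± 0.55), each with an adjusted p of 0.0026.

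Ccr2 was the one receptor among the 9. Its level was 2.41, 2.94, 4.15 and 7.36 CPM in female controls and 26.9, 51.6, 69.5 and 103 CPM in female sedentary pain. As for Ccl8, replicates 3 and 4 were the highest. The log2 fold change was 3.92 ± 0.54 (adjusted p = 0.0026), 15.2-fold. In whole muscle, a higher level of Ccr2 or of a chemokine can come from more cells that carry the RNA or from more RNA per cell, and these cannot be told apart.

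All 9 of 9 genes were thus called higher in female sedentary pain, against 19.6% of the 14511 genes tested. All 9 also had no overlap between the groups, in the direction higher in pain, against 13.9% of the genes tested. Their median log2 fold change was 5.90, while that of all genes tested was -0.02. Ccl2, Ccl6, Ccl9 and Ccr2 reached the minimum of the low-count filter in all 4 female controls. Ccl8 reached it in 3 controls, Ccl7 in 1 and Ccl3, Ccl4 and Ccl12 in none, so these 5 genes passed only with the help of pain libraries, which favours genes that differ, and the count and the median of the 9 are a description. The 9 genes were called without the filter too, and in each of the 12 fits that left out 1 library. In replicates 1 and 2 alone 6 of the 9 were called (not Ccl3, Ccl4 and Ccl12), with 1.67% of all genes, and in replicates 3 and 4 alone 8 were (not Ccl3), with 22.4% of all genes.

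**Figure D1:**
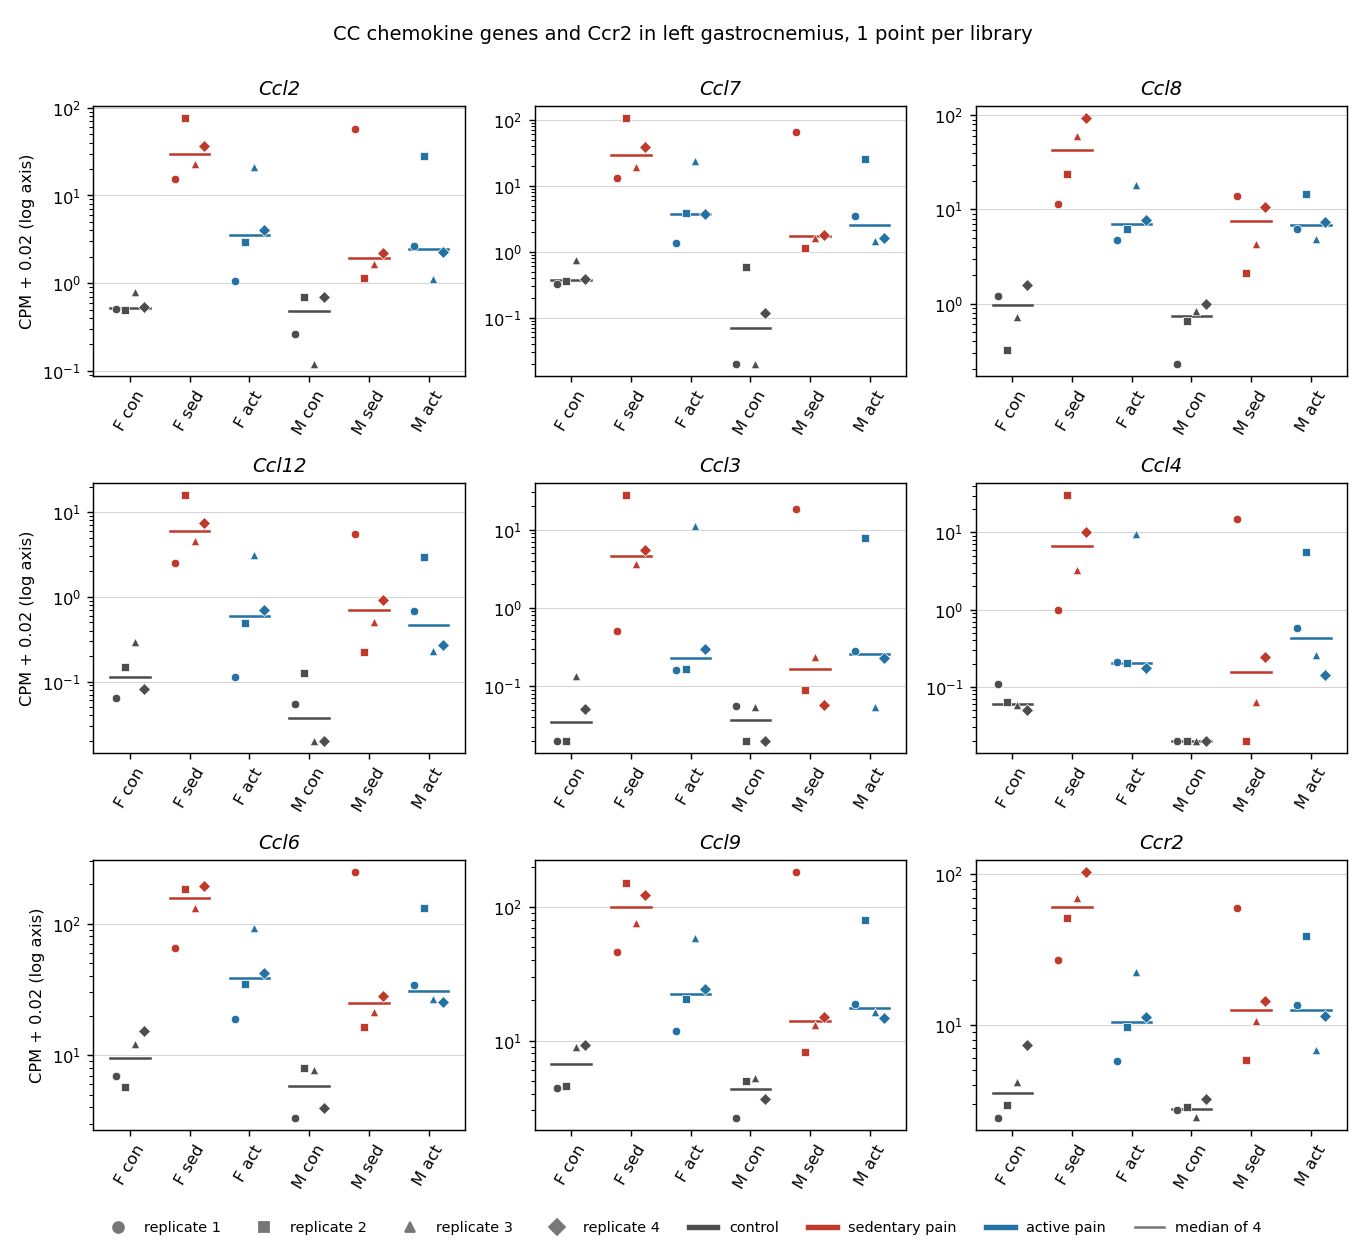
Levels of the 8 chemokine genes and Ccr2 in each of the 24 libraries, as TMM-scaled CPM plus 0.02 on a log axis; the marker shape gives the replicate number, the colour the condition (con, control; sed, sedentary pain; act, active pain; F, female; M, male) and the line the median of 4. All female sedentary pain libraries lie above all female controls, and 1 library is highest for every gene in each of the other pain groups (F act replicate 3, M sed replicate 1, M act replicate 2).

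The other genes of the chemokine system were read from lists of known members. Of 12 further CC chemokines, 7 were counted well enough to be tested in females and 2 were called higher in sedentary pain, Ccl5 and Ccl22, a share near the 19.6% of all genes. Ccl5, made by T and NK cells among others, had 1.84, 4.67, 150 and 322 CPM in female sedentary pain and at most 1.79 CPM in the female controls (log2 fold change 7.44 ± 1.61, adjusted p = 0.00714). Its high libraries were replicates 3 and 4, the pair with high T and NK cell sums. Ccl22, a dendritic cell chemokine, had a log2 fold change of 4.72 ± 1.07 (adjusted p = 0.00863). Ccl11, an eosinophil chemokine, had 15.1, 13.5, 30.6 and 23.4 CPM in sedentary pain and 15.1 to 20.5 CPM in controls, and was not called (adjusted p = 0.397). Ccl24 and Ccl27a were not called either, with log2 fold changes of 1.77 ± 1.19 and -0.31 ± 0.21.

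Of 13 further CC and atypical receptors, 6 were tested and 4 were called higher in female sedentary pain. Ccr1, the receptor of Ccl6 and Ccl9, had 6.32, 23.5, 3.22 and 4.07 CPM in sedentary pain and 0.213 to 0.817 CPM in controls (log2 4.26 ± 1.01, adjusted p = 0.0109). Ccr1 was highest in replicate 2, as was Ccl9, while Ccl6 was highest in replicate 4. Ccr7, which guides dendritic and T cells, and Ackr1, an atypical receptor of venules, were also called, with log2 fold changes of 5.17 ± 1.12 and 1.93 ± 0.37. Ackr2, a scavenger of CC chemokines, was not (log2 -0.84 ± 0.47, adjusted p = 0.167).

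Of 22 genes known to drive chemokine transcription, 15 of the 18 tested were called higher in female sedentary pain, with a median log2 fold change of 1.78. They included Nfkb2 (2.08 ± 0.28), Relb (1.84 ± 0.25) and Rela (1.07 ± 0.21) of the NF-kappaB family, the adaptor Myd88 (2.53 ± 0.42) and its receptor Tlr2 (4.88 ± 0.86). Of 14 genes that act below chemokine receptors, 11 were called higher, with a median of 2.22. Among these were Vav1 (4.85 ± 0.74) and Rac2 (5.11 ± 0.78), which act in actin remodelling of blood cells, Pik3r5 (4.45 ± 0.74), a subunit of phosphoinositide 3-kinase gamma, Arhgdib (3.50 ± 0.59), a regulator of small GTPases in blood cells, and Arrb2 (2.90 ± 0.51), an arrestin. No gene of these 4 lists was called lower.

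Markers of blood-derived cells were read in the same way, against 19.6% of all genes called higher and 13.9% called lower. In female sedentary pain 10 of 10 monocyte genes were called higher, 10 of 12 macrophage genes and 5 of the 8 neutrophil genes tested (of 10). Of the other lists, 4 of the 4 T and NK cell genes tested (of 10), 2 of the 5 dendritic cell genes (of 7), 2 of the 3 B cell genes (of 6), 0 of the 5 mast cell genes (of 6), 1 of 7 fibroblast genes and 1 of the 5 satellite cell genes (of 6) were called higher. In the same comparison 2 of 7 endothelial, 2 of 10 muscle fibre and 5 of 6 adipocyte genes were called lower. The scarce lists can pass the filter mainly through pain libraries: in the female controls the summed genes were as low as 0.596 CPM for T and NK cells, 0.724 CPM for B cells and 1.32 CPM for neutrophils, so their counts are a description. The counts for endothelial, muscle fibre, fibroblast and satellite cell genes rest on 1 or 2 genes each. The adipocyte genes summed to 166 to 3753 CPM in the female controls and 66.1 to 460 CPM in female sedentary pain. The neutrophil genes summed to 21.4, 254, 39 and 54.8 CPM in the sedentary pain replicates and were highest in replicate 2, as were Ccl2, Ccl3, Ccl4, Ccl7, Ccl9 and Ccl12. The part of these cell types in the chemokine results was not tested.

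Set against the summed macrophage genes of the same library, Ccl8 and Ccl2 behaved differently. Ccl8 stood at 10.4, 2.63, 3.63 and 6.49 CPM per 1000 CPM of macrophage genes in female controls and at 24.8, 40.1, 16.4 and 18 in female sedentary pain. It stood at 17.9, 19.8, 39.7 and 16.3 in female active pain, again above every female control. The male controls stood at 2.68, 4.4, 4.92 and 8.30, male sedentary pain at 20.2, 13, 17.4 and 20.3, and male active pain at 24.3, 29.5, 18.5 and 16.4. The ratio of Ccl8 was thus above every control of the same sex in all 16 pain libraries. Of the 9 genes it was the only one of which this was so. How many of all genes do the same was not counted, so this is a description.

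The ratio of Ccl2 was 33.6 and 127 in female sedentary pain replicates 1 and 2 but 6.16 and 7.14 in replicates 3 and 4, against 2.16 to 4.23 in female controls. Ccl3 stood at 46.1 in replicate 2 and at 1.06, 0.968 and 1.07 in the other replicates, against 0 to 0.604 in female controls. The ratio of Ccr2 was 58.2 and 86.2 in replicates 1 and 2 and 18.8 and 20.0 in replicates 3 and 4, where it lay below the 21.2 to 30.9 of the controls. For Ccr2, Ccl6, Ccl9 and Ccl12 female sedentary pain and control overlapped in this ratio, while for Ccl2, Ccl3, Ccl4, Ccl7 and Ccl8 they did not. The share of all genes without overlap in this ratio was not taken, so this split is a description. The list mixes resident and recruited macrophage genes, and no test was made of these ratios.

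**Figure D2:**
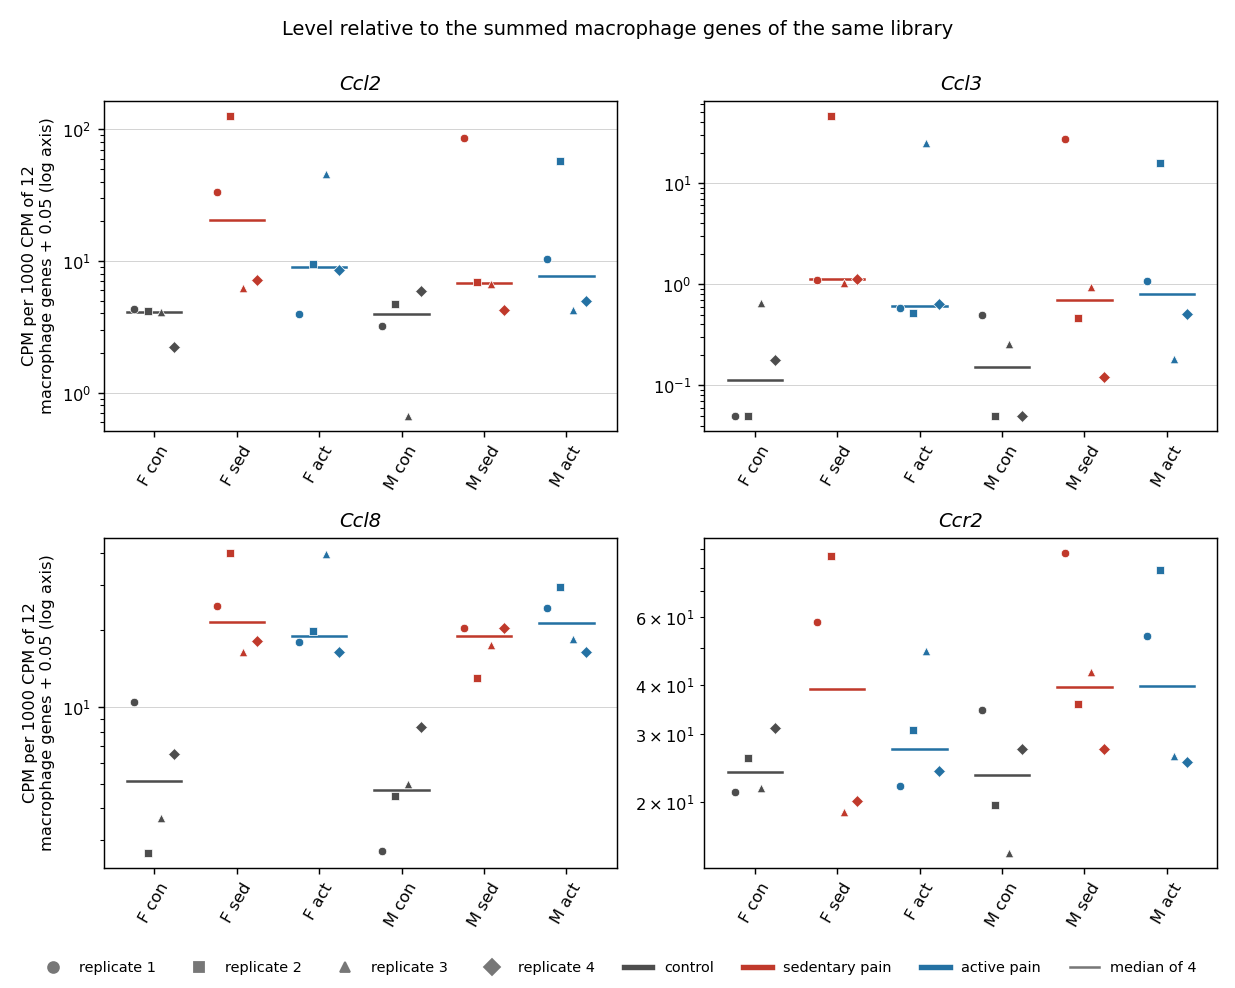
CPM of Ccl2, Ccl3, Ccl8 and Ccr2 per 1000 CPM of 12 macrophage genes of the same library, plus 0.05, on a log axis, with 1 point per library, shapes for replicates and a line at the median of 4. Ccl8 lies above the same-sex controls in all 16 pain libraries, whereas Ccl3 is at 15.9 or more in 4 libraries and at most 1.07 in the others.

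In females that had run on wheels, the 9 genes lay between the controls and the sedentary pain animals, and 1 library, replicate 3, was the highest for all 9. Ccl2 had 1.03, 2.96, 20.9 and 4.04 CPM, and Ccl7 had 1.35, 3.77, 23.9 and 3.76 CPM. Ccl8 had 4.66, 6.22, 18.2 and 7.70 CPM. All 4 libraries were above every female control for these 3 genes, and replicate 3 alone reached the range of the sedentary pain libraries.

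For the less abundant genes replicate 3 carried most of the signal. Ccl3 had 0.140, 0.146, 11.2 and 0.275 CPM, and Ccl4 had 0.186, 0.183, 9.49 and 0.153 CPM in female active pain. Replicate 3 thus held 95.2% of the summed CPM of Ccl3 and 94.8% of that of Ccl4 in its group. Ccl12 had 0.0932, 0.476, 3.13 and 0.673 CPM, so that replicate 1 lay among the controls. Ccl6 had 18.8, 35, 92.4 and 42.4 CPM, Ccl9 had 11.8, 20.3, 58.6 and 24.3 CPM, and Ccr2 had 5.73, 9.63, 22.5 and 11.3 CPM. For Ccr2 replicate 1 overlapped the highest control. The summed neutrophil genes were 6.57, 80.5, 114 and 6.27 CPM in these libraries against 1.32 to 9.05 in the controls. None of the 10 was at 0 over the group, and the sum was also highest in replicate 3. The 10 monocyte genes summed to 33.9, 69.8, 196 and 67.1 CPM there, again highest in replicate 3, against 19.1 to 35.7 in the controls. The part of these cells was not tested.

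Against controls, none of the 9 genes was called in female active pain by edgeR (adjusted p 0.565 to 0.591, with 0.0% of all 14511 genes called higher). At an unadjusted p under 0.05 all 9 were higher, against 3.78% of the genes tested, and DESeq2 called 7, all but Ccl12 and Ccr2, with 0.861% of all genes called in either direction. The groups did not overlap for 7 of the 9, against 3.92% of all genes. Ccl3, Ccl4, Ccl7, Ccl8 and Ccl12 passed the low-count filter only with the help of pain libraries, which favours genes that differ. These counts are therefore a description. The log2 fold changes ran from 1.53 ± 0.50 for Ccr2 to 6.12 ± 2.05 for Ccl3, with 3.69 ± 0.88 for Ccl2, 3.28 ± 0.72 for Ccl8 and 2.24 ± 0.51 for Ccl6. These values leaned on replicate 3: without it Ccl2 was at 2.23 ± 0.60, Ccl3 at 2.19 ± 1.73, Ccl8 at 2.69 ± 0.68, Ccl6 at 1.66 ± 0.44 and Ccr2 at 1.04 ± 0.47, and none was called.

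Compared directly, active pain females had lower levels than sedentary pain females of Ccr2, Ccl8, Ccl9 and Ccl12, 4 of the 9 genes, against 9.41% of all genes called lower. Ccr2 was 5.25-fold lower (log2 -2.39 ± 0.51, adjusted p = 0.0328), and it was the single gene of the 9 whose groups did not overlap, against 5.73% of all genes. Ccl8 was 5.29-fold lower (log2 -2.40 ± 0.65, adjusted p = 0.0384), Ccl12 6.97-fold lower (log2 -2.80 ± 0.82, adjusted p = 0.0472) and Ccl9 3.53-fold lower (log2 -1.82 ± 0.50, adjusted p = 0.0405). Ccl6 (log2 -1.64 ± 0.49, adjusted p = 0.0508) and Ccl2 (log2 -2.41 ± 0.76, adjusted p = 0.0591) were just short of the threshold. Ccl7 had an adjusted p of 0.0736, and Ccl4 and Ccl3 had 0.245 and 0.394. At an unadjusted p under 0.05, 7 of the 9 were lower, against 19.4% of all genes. The sedentary pain females enter this comparison and the one with controls, so the rise and the difference share those samples. For Ccl12, the filter minimum was reached in 0 female control, 4 sedentary pain and 3 active pain libraries. For Ccl3 and Ccl4 these were 0, 4 and 1. These genes entered the test only with the help of sedentary pain, where they are high. The counts of calls, here and below, are therefore a description.

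These calls depended on single libraries. Without active pain replicate 3 all 9 genes were called lower, with log2 fold changes from -2.24 ± 0.47 for Ccl6 to -6.04 ± 1.13 for Ccl4 (adjusted p 0.0272 to 0.0303). Ccl2 was then at -3.88 ± 0.60, and 10.4% of all genes were called in either direction. Without sedentary pain replicate 1 there were 7 calls, with 29% of all genes called. Without active pain replicate 1, 2 or 4, or without sedentary pain replicate 3 or 4, no gene of the 9 was called, and at most 0.0204% of all genes were. Without 1 of the other 5 libraries 2 or 3 of the 9 were called, with 7.9% to 11.9% of all genes. With only the 8 libraries of these groups in the fit, or with replicates 1 and 2 alone, 0 of the 9 and 0.0% of all genes were called, and with no low-count filter 0 of the 9 and 0.667% of all genes. With all 24 libraries in 1 fit 2 were called (Ccl8 and Ccr2), a share near the 15.7% of all genes. DESeq2 called 7 of the 9, all but Ccl3 and Ccl4, with 20.7% of all genes called.

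**Figure D3:**
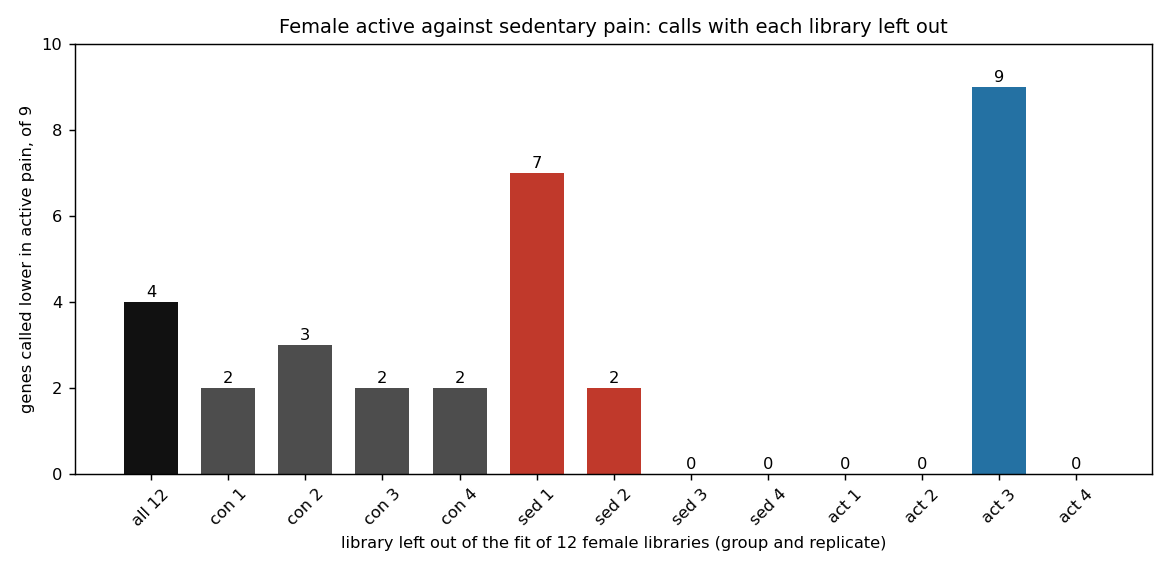
Number of the 9 genes called lower in female active than in female sedentary pain at an adjusted p under 0.05, with all 12 female libraries and with each library left out in turn; black is the complete fit, grey, red and blue mark a left-out control, sedentary pain or active pain library. The count runs from 0 to 9 and is highest without active pain replicate 3, while the share of all genes called runs from 0.0% to 29%.

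The other lists were read against the 9.41% of all genes called lower in this comparison. In female active against sedentary pain, 1 of the 7 other CC chemokines tested was called lower (Ccl5, log2 -6.63 ± 1.53, adjusted p = 0.0328), with 2 of 6 receptors (among them Ccr7, log2 -3.20 ± 0.95), 7 of 18 inducers and 9 of 14 signalling genes. Of the 7 other chemokines, 1 was higher at an unadjusted p under 0.05. Of the markers, 6 of 10 monocyte, 7 of 12 macrophage and 4 of 4 T and NK cell and 2 of 5 dendritic cell genes tested were called lower, with 0 of 8 neutrophil and 0 of 3 B cell genes. No gene of the mast cell, endothelial, fibroblast, muscle fibre, satellite cell or adipocyte lists was called. The neutrophil genes S100a8 and S100a9 had log2 differences of -0.45 ± 1.11 and -0.80 ± 1.23. With only the 8 libraries of these groups in the fit no gene at all was called, these lists included, and with no filter 174 genes were, against 1730. No gene of these lists was called higher, and in female active pain against control and in the male comparisons edgeR called no gene of any of these lists in either direction.

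In males, each sedentary pain library was above every control for all 7 genes that could be tested, but replicate 1 stood far above the others for most of them. Ccl2 had 0.245, 0.672, 0.101 and 0.677 CPM in male controls and 57.9, 1.13, 1.61 and 2.19 CPM in male sedentary pain. Ccl7 had 0, 0.566, 0 and 0.0968 CPM in controls and 64.4, 1.13, 1.61 and 1.75 CPM in sedentary pain. Replicate 1 held 92.1% of the summed CPM of Ccl2 in its group and 93.5% of that of Ccl7, and the lowest of the other replicates was still above the highest control.

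Ccl8 was spread more evenly. It had 0.210, 0.637, 0.805 and 0.968 CPM in male controls and 13.7, 2.12, 4.27 and 10.7 CPM in male sedentary pain. Replicate 1 held 44.5% of the summed CPM of the group. Ccl12 had 0.0350, 0.106, 0 and 0 CPM in controls and 5.52, 0.205, 0.480 and 0.892 CPM in sedentary pain.

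Ccl6 had 3.32, 8.00, 7.71 and 3.97 CPM in male controls and 246, 16.3, 21.3 and 28.4 CPM in male sedentary pain. Ccl9 had 2.62, 4.92, 5.20 and 3.64 CPM in controls and 182, 8.13, 13.1 and 15.1 CPM in sedentary pain. Ccr2 had 2.69, 2.83, 2.41 and 3.19 CPM in controls and 59.5, 5.84, 10.6 and 14.4 CPM in sedentary pain. For each of these genes replicate 1 exceeded the next library at least 4-fold, and the lowest pain library still exceeded the highest control.

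Ccl3 and Ccl4 were left untested in males, since 2 and 3 libraries reached the minimum of the low-count filter. Ccl3 had 1, 0, 1 and 0 counts in male controls and 471, 2, 5 and 1 counts in male sedentary pain. Ccl4 had 0 counts in all 4 male controls, which allows up to 3 counts over the group, and 382, 0, 1 and 6 counts in sedentary pain. Taken over the groups' mean CPM, Ccl4 was at least 150-fold higher in sedentary pain and at least 63.8-fold higher in active pain, and in both cases this rests on 1 library. The other libraries held at most 6 counts of Ccl4 in sedentary pain and at most 13 in active pain.

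The high male library also differed in its markers. The 10 neutrophil genes summed to 294 CPM in male sedentary pain replicate 1 and to 2.83 to 3.04 CPM in the other replicates, with Ly6g at 0 over the male controls and no gene of the list at 0 over the pain group. The macrophage genes summed to 678, 163, 245 and 527 CPM in male sedentary pain against 78.2 to 164 CPM in male controls. The Ccl2 ratio to the macrophage genes was 85.4 in replicate 1 and 4.16 to 6.90 in the other replicates, of which 1 lay within the 0.615 to 5.81 of the controls. The part of these cells in the chemokine values was not tested.

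By edgeR none of the 7 tested genes was called in male sedentary pain against control (adjusted p 0.296 to 0.336, with 0.0% of the 14404 genes tested called higher). In males Ccl6, Ccl9 and Ccr2 reached the minimum of the low-count filter in all 4 controls, Ccl8 in 3, Ccl2 in 2, Ccl7 in 1 and Ccl12 in none, so the last 4 entered the male tests only with the help of pain libraries, which favours genes that differ. As a description, all 7 were higher at an unadjusted p under 0.05 (7.46% of all genes) and had no overlap between groups (4.48% of all genes). The log2 fold changes were 5.26 ± 1.65 for Ccl2, 6.75 ± 1.92 for Ccl7, 5.57 ± 1.51 for Ccl12, 3.57 ± 0.65 for Ccl8, 3.81 ± 0.98 for Ccl6, 3.79 ± 1.05 for Ccl9 and 3.07 ± 0.75 for Ccr2. DESeq2 called Ccl8, Ccl12 and Ccr2 with 1.87% of all genes, and gave no adjusted p for Ccl2, Ccl6, Ccl7 and Ccl9. Without replicate 1 the log2 fold change of Ccl2 fell from 5.26 to 1.95 ± 1.14 and that of Ccl8 from 3.57 to 3.11 ± 0.61, and none was called.

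Male active pain showed the same arrangement with another library high, replicate 2. Ccl2 had 2.61, 28.2, 1.10 and 2.23 CPM, Ccl7 had 3.48, 25.4, 1.45 and 1.61 CPM, and Ccl8 had 6.17, 14.4, 4.83 and 7.40 CPM. Each of the 4 libraries was above every male control for these genes. Ccl6 had 34.3, 131, 26.8 and 25.2 CPM, Ccl9 had 18.9, 80.1, 16.2 and 14.8 CPM and Ccr2 had 13.6, 38.7, 6.86 and 11.4 CPM. Ccl12 had 0.652, 2.95, 0.207 and 0.248 CPM, and its controls reached 0.106 CPM. Ccl3 had 6, 195, 1 and 5 counts and Ccl4 had 13, 140, 7 and 3 counts. The neutrophil genes, with none at 0 over the group, summed to 12.2, 78.8, 9.31 and 3.80 CPM in these libraries and were highest in replicate 2. The monocyte genes summed to 59.0, 157, 66.1 and 75.3 CPM, also highest in replicate 2. The macrophage genes summed to 254, 489, 261 and 451 CPM. The part of these cells was not tested.

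None of the 7 genes tested was called in male active pain against control (adjusted p 0.465 to 0.582 in edgeR, 0.0% of all genes called higher). With the same limit from the filter for Ccl2, Ccl7, Ccl8 and Ccl12, all 7 were higher at an unadjusted p under 0.05 (5.26% of all genes) and had no overlap between the groups (7.31% of all genes). Ccl8 had the smallest unadjusted p of the 7 (0.000147 in edgeR's quasi-likelihood test), with a log2 fold change of 3.63 ± 0.66. Ccl2 had 4.33 ± 1.60. Without replicate 2 the value of Ccl2 went to 2.21 ± 1.42, that of Ccl7 from 5.59 to 3.70 ± 1.76 and that of Ccl8 to 3.20 ± 0.64, and none was called. DESeq2 again called Ccl8, Ccl12 and Ccr2, with 0.882% of all genes, and gave no adjusted p for Ccl2, Ccl6, Ccl7 and Ccl9. With male sedentary pain replicate 1 and male active pain replicate 2 both left out, an alternative chosen after seeing the data, Ccl6 (log2 2.33 ± 0.32, adjusted p = 0.0494) and Ccl9 (log2 2.03 ± 0.26, adjusted p = 0.0251) were called higher in active pain, with 0.0553% of all genes called, and none of the 7 in sedentary pain. The sedentary and active comparisons share the male controls.

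**Figure D4:**
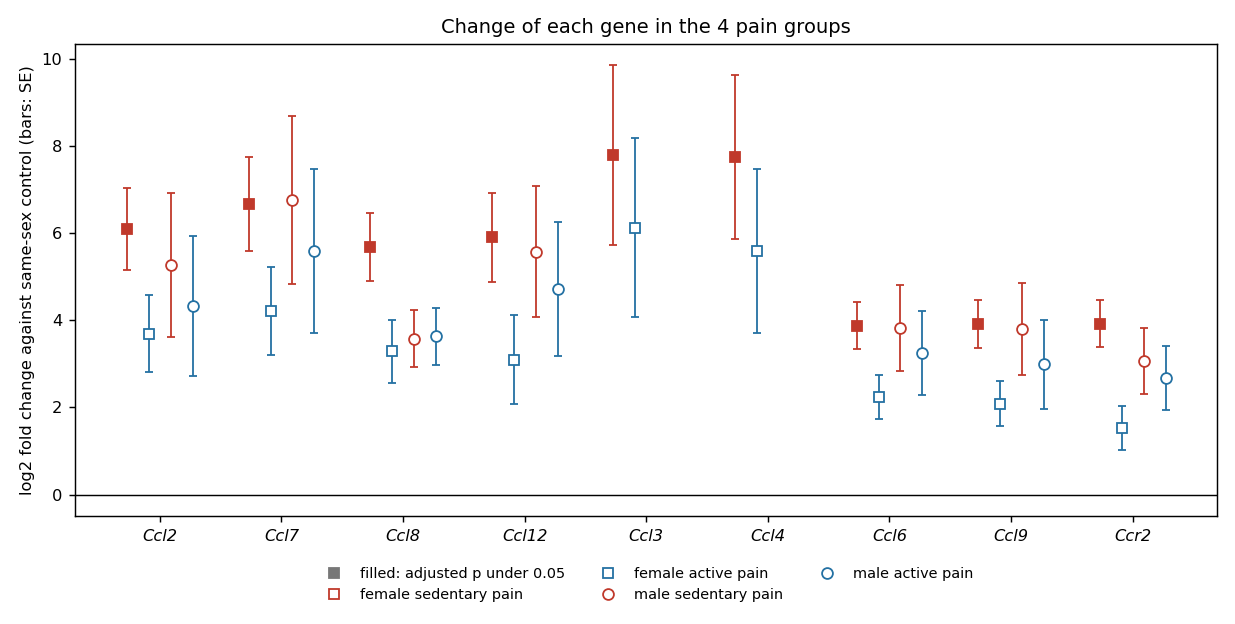
Log2 fold change against same-sex controls for each gene in the 4 pain groups, with bars of 1 SE (derived from the F statistic). Squares are females, circles males, red sedentary pain, blue active pain, and filled symbols have an adjusted p under 0.05. The 9 filled symbols are all female sedentary pain; Ccl3 and Ccl4 were not tested in males.

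Active and sedentary pain males differed in none of the 7 genes tested (adjusted p of 1.0 in edgeR; 0 at an unadjusted p under 0.05, where 0.465% of all genes were higher and 0.375% lower; 0 by DESeq2; 0.0% of all genes called in either direction). DESeq2 gave no adjusted p for Ccl2, Ccl6, Ccl7 and Ccl9 against controls in the same fit, so its 0 says little about these genes. The log2 differences in edgeR ran from -1.16 ± 1.37 for Ccl7 to 0.06 ± 0.57 for Ccl8. Their direction turned with 1 library: without male sedentary pain replicate 1 that of Ccl2 went from -0.93 to 2.38, that of Ccl7 from -1.16 to 2.43, that of Ccl9 from -0.80 to 1.43 and that of Ccl6 from -0.57 to 1.31, none of them called. For Ccl8 the 4 values of each group interleaved, with means of 8.20 ± 4.28 (SD, n = 4) CPM in active pain and 7.71 ± 5.42 CPM in sedentary pain. For Ccl2 the groups overlapped as well, and the high library of each set its mean.

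Whether the sexes differed was tested directly, as male change minus female change in a fit of all 24 libraries. For sedentary pain against control none of the 9 genes was called (0.0% of the 15103 genes tested were called in either direction), and Ccl8 alone had an unadjusted p under 0.05, against 6.26% of all genes with a smaller and 3.32% with a larger change in males. Its change was smaller in males by 2.15 ± 0.99 on the log2 scale (adjusted p = 0.498). For active pain against control none was called (0.0% of all genes), and none had an unadjusted p under 0.05, against 1.57% of all genes larger and 0.463% smaller in males. For active against sedentary pain none was called (0.0% of all genes), and Ccl8 (2.50 ± 0.90, adjusted p = 0.246) and Ccr2 (2.04 ± 0.89, adjusted p = 0.304) had an unadjusted p under 0.05, against 10.1% of all genes with a larger and 4.63% with a smaller value in males. DESeq2 called 0 of the 9 in each of the 3 tests. Without male sedentary pain replicate 1, 6 of the 9 were called in the last of these tests, with 14.1% of all genes, and in the 23 fits without another library none was. The 6 were Ccr2 (3.21 ± 0.76, adjusted p = 0.0228), Ccl9, Ccl6, Ccl2, Ccl7 and Ccl8, each with the female difference the more negative. With both high male libraries left out Ccl9 was called in the test of sedentary pain against control (-2.34 ± 0.65, adjusted p = 0.0499), with 3.85% of all genes.

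Controls of the sexes were compared in the same fit, and all 9 genes had a lower fitted level in males, with a median log2 difference of -0.81 against -0.03 for all genes. Between male and female controls none of the 9 genes was called (edgeR adjusted p 0.615 to 0.919; 0 at an unadjusted p under 0.05, where 7.6% of all genes were higher and 7.26% lower in males; 0 by DESeq2), against 1.54% of all genes called higher and 1.28% called lower in males. Ccl4 was the single gene without overlap, against 8.73% of all genes lower in males, at 0 counts in males and 1 or 2 counts in females, which is within the limit of 3 counts. Mean Ccr2 was 2.78 ± 0.324 CPM (SD, n = 4) in male and 4.21 ± 2.22 CPM in female controls, and mean Ccl6 was 5.75 ± 2.45 and 9.95 ± 4.43 CPM.

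Levels of different genes were compared per kilobase of exon. In female controls the order of mean CPM per kilobase was Ccl6 (5.54), Ccl9 (2.21), Ccl8 (1.82), Ccr2 (0.623), Ccl7 (0.543), Ccl2 (0.491), Ccl12 (0.233), Ccl4 (0.0753) and Ccl3 (0.0475). Ccl9 exceeded Ccl8, and Ccr2 exceeded Ccl7, in 2 of the 4 libraries, so these neighbours were not separated. Ccl7 exceeded Ccl2, Ccl12 exceeded Ccl4 and Ccl4 exceeded Ccl3 in 3 of the 4, so they were not separated either. In female sedentary pain Ccl8 (92.5) and Ccl6 (80.0) came first, each ahead of the other in 2 libraries. Ccl7 (54.9), Ccl2 (33.2) and Ccl9 (32.6) followed, though Ccl2 exceeded Ccl9 in 1 of the 4 libraries. Ccl6 exceeded Ccl7 in 3 of the 4, so these were not separated. Ccr2 (9.29) had the lowest mean there, but Ccl3 (12.1) exceeded it in 1 of the 4 libraries, so these were not separated either. In male controls the first 4 were Ccl6 (3.20), Ccl9 (1.35), Ccl8 (1.28) and Ccr2 (0.412). There Ccl9 exceeded Ccl8 in 3 of the 4 libraries and Ccr2 exceeded Ccl2 (0.372) in 2, so these neighbours were not separated in males either.

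The 9 genes were high and low in much the same libraries. Over the 36 pairs of genes, Spearman's rank correlation of log2 CPM ran from 0.832 to 0.993, with a median of 0.932, a description over libraries that share the group differences and their depth. Ccl6 and Ccl9 were the most alike (0.993), and Ccl3 and Ccl4, both near 0 in most libraries, the least (0.832). After each group's mean was taken away, Pearson's r was 0.985 for Ccl6 and Ccl9, 0.965 for Ccl2 and Ccl7 and 0.941 for Ccl3 and Ccl4. It was lowest for pairs with Ccl8, at 0.526 with Ccl12 and 0.531 with Ccl7, its neighbours on the chromosome. Ccl8 with Ccr2 had 0.784.

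Outside the 9 genes, the genes most like 4 of them over the 24 libraries were found by Spearman's rank correlation of log2 CPM among 11150 genes. For Ccl2 they included the annexin gene Anxa4 (0.973), Msr1, Lilr4b and Ms4a6d (0.964). For Ccl8 they were Cyth4 (0.984), Tyrobp, Itgam, Fes and Nckap1l (0.974). For Ccl6 they were Csf3r (0.991), Cd68, C5ar1, Cotl1 and Wfdc17 (0.982). For Ccr2 they included Cd53 (0.977), Clec4a1, Ctss and Fcgr1 (0.974). Csf3r is the receptor of granulocyte colony-stimulating factor, Cd68 a lysosomal protein of macrophages, Itgam the integrin alpha M of myeloid cells and Msr1 a scavenger receptor. Each value is a description over libraries that share the group differences.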

How the data were processed

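RNA-seq libraries of 24 mouse muscle samples were used. Per the labels, RNA was extracted with a kit for fibrous tissue, and TruSeq stranded libraries were made from 0.5 µg of total RNA and sequenced from both ends, 100 bases each. The values deposited by the authors are raw counts per Ensembl gene. The submitters' processing notes name HISAT2 2.1.0, Salmon 0.9.1, featureCounts, DESeq2 1.24.0, mm10 and GRCm38.p6, with no role or order. Whether strand was used in counting is not given in the sources used here. Positions come from GENCODE M21 by gene identifier, found for 54495 genes.

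The counts were filtered (filterByExpr, minimum count 10), scaled by TMM and tested, two-sided, with edgeR 4.0.16 quasi-likelihood tests (robust) under R 4.3.3, within each sex (12 libraries) and, for differences between sexes, over all 24. P-values were adjusted by Benjamini-Hochberg over all genes tested, with a threshold of 0.05. Each SE given with an edgeR log2 fold change is its absolute value divided by the square root of the F statistic. The SE thus restates the test and is a rough guide where the change is near 0. The script was tested on simulated data with the same spread for all genes and no outlying library. It was not a check of how the fit handles the high libraries here. Alternatives were RLE scaling, no filter, no robust step, DESeq2 1.42.0, a replicate block, a term for low or high library number (20 or less, 25 or more), other sets of groups in the fit and each library left out. Chosen after seeing the data were replicates 1 and 2 only, 3 and 4 only, and the fit without both high male libraries.

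The 9 genes, the gene lists and the marker lists were chosen with earlier results of these data known. The text names all 9 genes, those of the 5 genes most like Ccl2, Ccl8, Ccl6 and Ccr2 among genes whose mean log2 CPM (prior count 2) was 1 or more, and, from the lists, genes among the 5 with the smallest p in female sedentary pain against control. Some items that this rule would name, and 1 coding stretch, are not reported here.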

Additional observations from a re-analysis of the deposited data

Results flagged for a closer look

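In 22 of the 54 sets of 4 libraries (9 genes in 6 groups), 1 library lay so far above the other 3 that its gap to the next took up more of the group's whole range than Dixon's critical value allows. Chance would flag about 1 in 20 groups of normally distributed values at either end, but only the high end was counted and CPM is skewed. The chance rate for these groups is thus not known. The 9 genes also move together, so the flags are not independent. In male sedentary pain, replicate 1 was flagged for 8 genes, with 57.9 CPM for Ccl2, 64.4 for Ccl7, 5.52 for Ccl12, 18.6 for Ccl3, 15.1 for Ccl4, 246 for Ccl6, 182 for Ccl9 and 59.5 for Ccr2, and not for Ccl8. In male active pain, replicate 2 was flagged for 7 genes, with 28.2 CPM for Ccl2, 25.4 for Ccl7, 2.95 for Ccl12, 7.77 for Ccl3, 5.58 for Ccl4, 131 for Ccl6 and 80.1 for Ccl9. In female active pain, replicate 3 was flagged for 4 genes, with 20.9 CPM for Ccl2, 23.9 for Ccl7, 11.2 for Ccl3 and 9.49 for Ccl4. In controls the flagged values were small, at 0.769 CPM for Ccl2 and 0.731 for Ccl7 in female replicate 3 and 0.566 for Ccl7 in male replicate 2. No library of female sedentary pain was flagged.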

How the results depend on the processing

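All 9 genes stayed called in female sedentary pain against control under RLE scaling, no filter, no robust step, DESeq2, the replicate block, the library-number term, the other sets of groups and with each library left out. Replicates 1 and 2 alone gave 6 and replicates 3 and 4 alone 8. Over all genes that comparison had 4867 calls, 238 with replicates 1 and 2 only, 2847 with only the 2 groups in the fit and 2486 to 6674 with 1 library left out.

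Female active against sedentary pain was the least stable, with 4 of the 9 genes and 1730 genes called. It gave 0 and 174 with no filter, 7 and 3010 with DESeq2, 0 and 0 both with replicates 1 and 2 only and with only the 2 groups in the fit, 2 and 2306 with replicates 3 and 4 only, 2 and 2378 with all 24 libraries in 1 fit, and 6 and 2745 with the library-number term. With 1 library left out the counts ran from 0 to 9 and from 0 to 4316. Replicate numbers do not mark shared animals, and same-numbered libraries did not deviate together (mean r of 0.103 in females and 0.0058 in males; 11 of 48 correlated best with their own number). The replicate block called 7 of the 9 genes there (all but Ccl3 and Ccl4) and moved no other count of the 9. The share of all genes called with the block is not reported here, so this count is a description.

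Female active pain against control went from 0 of 9 and 0 genes to 7 and 125 with DESeq2, and to 1 (Ccl8) and 155 with replicates 3 and 4 only. Male sedentary pain against control went from 0 and 0 to 3 and 270 with DESeq2, and to 0 and 2 without both high male libraries. Male active pain against control went to 3 and 127 with DESeq2 and to 2 and 8 without both high male libraries. With 1 library left out these stayed at 0.

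The sex difference of sedentary pain against control went from 0 genes to 15 with DESeq2, 1349 with replicates 3 and 4 only, 591 (and 1 of the 9) without both high male libraries and 0 to 18 with 1 library left out. That of active pain against control went to 3 with DESeq2, 11 with replicates 3 and 4 only and 0 to 1 with 1 library left out. That of active against sedentary pain went to 133 with DESeq2, 1222 with replicates 3 and 4 only, and 0 to 2174 genes (0 to 6 of the 9) with 1 library left out. Male against female controls went from 427 to 720 with DESeq2, 12 with replicates 1 and 2 only, 885 with replicates 3 and 4 only and 198 to 622 with 1 library left out.

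At 4 libraries a group, Ccl3, Ccl4 and Ccl12, with few counts in controls, have folds whose size is poorly set. The cause of these changes was not tested.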
